A study of Sus scrofa with 6 samples.

Results

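Heat shock proteins and chaperones were read from the expression arrays of 2 pig skeletal muscles, the longissimus dorsi muscle (LDM), a pale and mainly glycolytic back muscle, and the psoas major muscle (PMM), a redder and more oxidative loin muscle. Member probes were those whose description in the array files named a heat shock protein, a DnaJ homolog, a crystallin B chain or a T-complex protein, or whose gene name began with HSP or DNAJ. The rule took 50 of the 43603 probes. They covered 25 of the 3505 genes named on the array, and 5 further probes had only weak protein matches to distant species and carry no gene name here. By class, 3 probes read 2 small heat shock protein genes, 7 probes read 4 HSP40 genes, 6 probes read 2 HSP60 genes, 10 probes read 7 HSP70 genes, 9 probes read 3 HSP90 genes and 6 probes read 4 genes of the TCP1 ring. The other 4 named probes belonged to AHSA1, HSBP1 and SERPINH1.

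Both groups came from female Landrace pigs of 210 days of age, weaned at 28 days, kept without feed for 24 h before slaughter and stunned electrically. The labels name no treatment of either muscle. The methods mention that the carcasses were scalded and rinsed before they come to the sampling, which they place directly after bleeding, so whether the sampled muscle had passed through scalding is not clear from them. Each muscle had 3 one-colour Cy3 arrays, numbered 1 to 3 in the labels, and each number had 1 array of each muscle. According to its methods the study sampled both muscles of 3 pigs, and whether a number stands for a pig is not given in the labels. Arrays of the same number were scanned on the same day, so pig, number and day cannot be told apart. The arrays of replicate 2 shared a slide, as did those of replicate 3, so the slide cannot be told apart from these numbers either. In replicate 1 each muscle had its own slide, so muscle and slide coincide there.

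Chaperones bind proteins that are not yet folded or have lost their fold. The small heat shock proteins hold such clients without using ATP, HSP70 binds and releases them in an ATP cycle driven by HSP40 proteins, and HSP90 takes over late folding steps of kinases, receptors and, in muscle, of myosin. HSP60 in the mitochondrion and the TCP1 ring in the cytosol enclose their clients in a chamber, and the TCP1 ring is known for folding actin and tubulin. Many genes of the system are switched on by heat shock factors when unfolded proteins accumulate, and skeletal muscle holds large amounts of the small members, which bind to the sarcomere and its intermediate filaments.

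The probes were 60 bases long, and the following 7 are shown because they stand for the classes in which the replicates differed and read as an open frame. No capitals were set in them, and the HSP90 pair is given separately. Sequences are those of the array files, 5′ to 3′, and their chromosomal positions were not analysed here.
HSPB1 (A_72_P088101): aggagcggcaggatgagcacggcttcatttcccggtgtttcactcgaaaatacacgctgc
DNAJA4 (A_72_P057471): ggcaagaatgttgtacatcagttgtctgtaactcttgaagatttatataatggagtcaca
HSPD1 (A_72_P110291): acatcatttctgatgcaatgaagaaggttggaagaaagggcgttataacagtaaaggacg
HSP70.2 (A_72_P088236): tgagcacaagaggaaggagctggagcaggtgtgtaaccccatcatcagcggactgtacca
HSPH1 (A_72_P050661): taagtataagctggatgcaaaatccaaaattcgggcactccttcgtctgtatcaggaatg
TCP1 (A_72_P079966): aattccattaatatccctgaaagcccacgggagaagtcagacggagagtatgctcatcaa
AHSA1 (A_72_P363998): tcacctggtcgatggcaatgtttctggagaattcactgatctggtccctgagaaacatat

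HSP90AA1 and HSP90AB1, the stress-inducible and the constitutive cytosolic HSP90, are close paralogs, and a probe of each lay over the same stretch. Aligned without gaps over 49 bases, the probes A_72_P174931 and A_72_P424164 had 37 identical and 12 differing bases, which are given in capitals.
HSP90AA1 (A_72_P174931): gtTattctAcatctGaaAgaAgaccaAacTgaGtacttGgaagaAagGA
HSP90AB1 (A_72_P424164): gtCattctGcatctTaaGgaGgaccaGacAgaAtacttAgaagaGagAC
In the first 45 bases, each of the 10 differing bases stood at a position that is a multiple of 3, counted from the left end of the lines above. No probe of one HSP90 gene shared a run of 20 or more bases with a probe of the other. Among all member probes only the 2 probes of HSBP1 shared such a run with any other probe on the array, over 45 bases, so these 2 are not separate readings.

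Values are log2 of the processed spot intensity minus the 75th percentile of its array, called the normalized log2 signal, so that a difference of 1 is a doubling. A level of one probe cannot be set against that of another. A probe was tested when the scanner marked it well above background on every array of at least 1 muscle, which 25834 probes passed. Of the members 46 passed, which measured 24 genes, and 45 carried that mark on each of the 6 arrays. The 4 that did not pass were HSPA4L, 1 of the 2 probes of DNAJB1 and 2 probes without a gene name. Across the arrays the 75th percentile of intensity lay between 593 and 881 units, and no spot was saturated. The samples were taken as muscle, as labelled, although the extraction text of the labels speaks of adipose tissue. The muscle genes ACTA1, CKM, MB and DES were all detected on each of the 6 arrays. So were 5 of 6 adipocyte genes, so detection alone does not tell the tissues apart. Fewer cells of a type and less RNA per cell cannot be told apart in such tissue samples. With 3 arrays per muscle, the p-values of the muscle comparison measure only the spread between these samples.

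**Figure D1:**
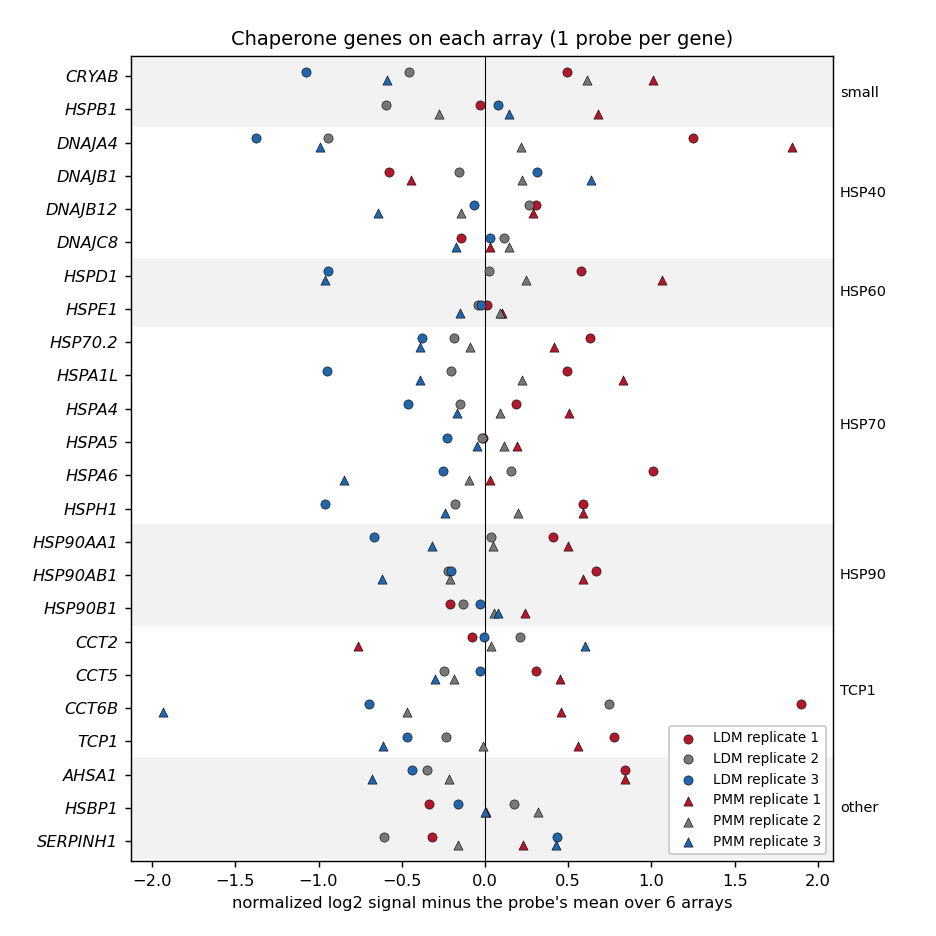
Normalized log2 signal of each chaperone gene on each array, drawn as the distance from the mean of its probe over 6 arrays (x axis, log2). Circles are LDM and triangles PMM, red, grey and blue are replicates 1, 2 and 3, and each gene has 1 probe, its brightest. In 18 of the 24 genes the mean of the 2 red points was the highest of the 3 replicate means.

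Between the muscles, the chaperone genes lay close together, as did the probes of the array as a whole. In limma 0 of 25834 probes (0%) and 0 of 46 member probes passed an adjusted p of 0.05 for PMM minus LDM. Without adjustment, 689 probes (2.67%) and 1 member, a probe without a gene name, had a p under 0.05. The median difference over the 46 members was 0.032 on the log2 scale, against -0.033 over all probes tested. The median absolute difference was 0.172 over the members and 0.195 over all probes. The standard errors of these differences ran from 0.27 to 0.84, so the precision differed widely between members. These standard errors, and those given for single genes below, come from the fit without the replicate number. They therefore include the spread between replicate numbers. The differences given below without 1 array also come from fits without the replicate number. Such a fit leaves the other array of that number unmatched, so differences between replicate numbers enter these values too. The range of the 3 replicate means exceeded the difference of the muscles in 44 of 46 members, as it did in 90.5% of all probes. With the replicate number as a block, 16 probes (0.0619%) were called and 0 members, and the lowest adjusted p among the members was 0.157. Without adjustment, the block left 7 of 46 members (15.2%) and 2909 of all probes (11.3%) with a p under 0.05.

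CRYAB, alpha B-crystallin, a small heat shock protein that binds desmin filaments and titin, had signals of 8.17, 7.23 and 6.61 in LDM replicates 1, 2 and 3 and of 8.69, 8.29 and 7.09 in PMM replicates 1, 2 and 3. PMM lay above LDM in each of the 3 pairs, by 0.52, 1.07 and 0.48, yet the ranges of the muscles overlapped. The mean difference was 0.69, or 1.61-fold, with a standard error of 0.53, and it ranged from 0.32 without LDM replicate 3 to 1.15 without PMM replicate 3. Its adjusted p was 0.99998, and 0.309 with the block. HSPB1, another small member that guards actin filaments, read 9.07, 8.51 and 9.17 in LDM and 9.78, 8.82 and 9.24 in PMM (A_72_P027403). Its second probe (A_72_P088101) read 5.87, 4.99 and 5.76 in LDM and 6.54, 5.25 and 6.04 in PMM. The 2 probes differed between the muscles by 0.37 and 0.40, PMM being higher in every pair of both, with standard errors of 0.36 and 0.42. Without PMM replicate 1 the difference of the brighter probe was 0.12, and without PMM replicate 2 it was 0.59. Thus the 3 probes of the small class had a higher mean in PMM and none passed the test.

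PMM was above LDM in 3 of 3 pairs in 16 of 46 members (34.8%), where 17.2% of all probes did so, and below it in 8 members (17.4%), where 18.9% did so. Marker lists also differed in their means, and none of their genes passed the test between the muscles. All 6 slow-fibre genes tested had a higher mean in PMM, with a median difference of 0.78, and their summed level, log2 of the sum over genes, lay between 10.8 and 11.2 in LDM and between 11.3 and 11.9 in PMM. Of the fast-fibre genes 5 of 7 were higher in PMM (median 0.092), of the general muscle genes 4 of 4 (0.16), of the endothelial genes 5 of 5 (0.29) and of the macrophage genes 3 of 3 (0.11). Of the adipocyte genes 2 of 6 were higher in PMM (median -0.36) and of the fibroblast genes 0 of 3 (-0.43). The part of fibre type or of other cells in the chaperone values was not tested.

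**Figure D2:**
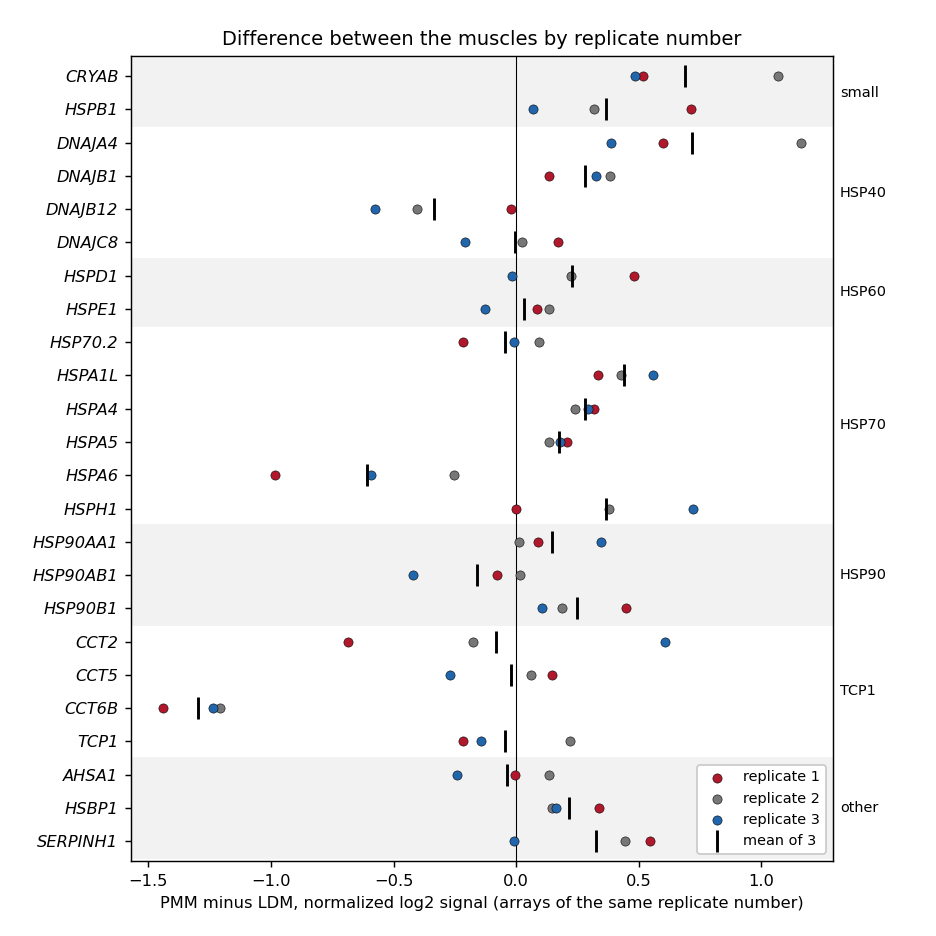
PMM minus LDM for each chaperone gene (x axis, log2; 1 probe per gene), with a point for each pair of arrays of one replicate number and a black bar for their mean. CRYAB and DNAJA4 lie to the right of 0 in all 3 pairs and CCT6B and HSPA6 to the left, and most means lie within 0.5 of 0.

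Among the HSP40 genes, DNAJA4, a J-domain partner of HSP70, had the largest mean difference between the muscles of all members with a higher mean in PMM. It read 4.29, 2.10 and 1.67 in LDM and 4.89, 3.26 and 2.05 in PMM (A_72_P177971). The difference of 0.72 had a standard error of 0.84, and PMM was higher in each pair, by 0.60, 1.16 and 0.39. Without PMM replicate 1 it was -0.029 and without LDM replicate 1 it was 1.52. Each of these fits leaves the other array of replicate 1 unmatched, so the excess of that replicate enters both values. DNAJB12, a J-domain protein of the endoplasmic reticulum membrane, was lower in PMM in each pair of both probes, with mean differences of -0.34 and -0.47. DNAJC8, a J-domain protein bound to the splicing machinery, differed by -0.0045 between the muscles.

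The 2 HSP60 genes lie next to each other in the pig gene table. HSPD1, the mitochondrial chaperonin itself, differed between the muscles by 0.23 on its brightest probe (A_72_P261027, standard error 0.58). Its other probes differed by 0.27 (A_72_P110291) and by -0.31 (A_72_P359323), the last with PMM lower in each pair. HSPE1, which closes the chamber of HSPD1, differed by 0.031 (A_72_P137646).

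In the HSP70 class, HSPA6, a stress-inducible HSP70 that the files call HSP70 and the pig gene table HSPA6, read 1.08, 0.22 and -0.19 in LDM and 0.095, -0.031 and -0.78 in PMM (A_72_P176131). Its difference was -0.61 with a standard error of 0.42, lower in PMM in 3 of 3 pairs, and it ranged from -0.89 without LDM replicate 3 to -0.26 without LDM replicate 1. HSPA1L, HSPH1, HSPA4 and HSPA5 were higher in PMM in all 3 pairs of their brightest probes, by means of 0.44, 0.37, 0.28 and 0.17. Without LDM replicate 3 that of HSPA1L was 0.076, and without LDM replicate 1 it was 0.80. HSPH1 and HSPA4 recharge HSP70 with ATP, and HSPA5 is the HSP70 of the endoplasmic reticulum. HSP70.2, the inducible HSP70 gene that the pig gene table also lists as HSPA1A and HSPA1B, differed by -0.044.

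In the HSP90 class, HSP90B1, the HSP90 of the endoplasmic reticulum, was the only named member whose muscles did not overlap. It read 4.52, 4.59 and 4.70 in LDM and 4.97, 4.78 and 4.81 in PMM. The difference was 0.25 (standard error 0.27, adjusted p = 0.99998 from limma), and the exact two-sided permutation test gave 0.1, the smallest p that 3 against 3 arrays allow. Of all probes, 3.19% lay wholly higher in PMM and 2.81% wholly lower. Cytosolic HSP90AA1 and HSP90AB1 differed by 0.15 and -0.16 on their brightest probes.

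In the TCP1 class, CCT6B, a ring subunit best known from testis, read -1.55, -2.71 and -4.15 in LDM and -2.99, -3.92 and -5.39 in PMM. PMM was lower by 1.44, 1.21 and 1.24 in the 3 pairs, so that the pairs were alike while the signal itself ranged widely within each muscle. The mean difference was -1.30 with a standard error of 0.76 and was not called, with an adjusted p of 0.157 with the replicate block over all probes. The same block fitted over the 2876 named genes alone called it (adjusted p = 0.00157), with 177 of the named genes (6.15%) and no other member. Leaving out 1 array gave -1.97 without LDM replicate 3 to -0.65 without PMM replicate 3. With the slide as a block, which compares only replicates 2 and 3, the adjusted p was 0.00201, and 757 probes (2.93%) were called with it, 2 of them members. The probe was not well above the background on the array of PMM replicate 3. It passed the detection filter through LDM alone, the muscle in which it was higher. Its calls between the muscles are therefore no support for a difference. Normexp background correction moved the difference to -0.28. TCP1, CCT5 and CCT2, the other ring subunits measured, differed by -0.047, -0.021 and -0.083.

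The other member called with the slide as a block was A_72_P128396, which has no gene name. It read 3.01, 1.80 and 2.58 in LDM and 1.26, 1.16 and 1.42 in PMM, without overlap. Its difference was -1.18 with a standard error of 0.37, an unadjusted p of 0.0116, an adjusted p of 0.99998 and, with the slide as a block, an adjusted p of 0.0409.

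Between the replicate numbers many chaperone genes differed. The moderated F test of limma over the 3 replicate numbers, with the muscle as a term, called 6518 of 25833 probes (25.2%) and 21 of 46 member probes (45.7%), which belonged to 13 genes and 1 probe without a name. In 20 of the 21, replicate 1 lay above the mean of replicates 2 and 3. Each number had 1 array of each muscle, so the 2 muscles served as the repeats within a number. The error in this test is the spread left after muscle and number. Its p-values, and those of the contrasts, therefore do not measure the spread between pigs or scan days. Fitted over named genes with the brightest probe of each, the F test called 15 of 24 member genes (62.5%) and 1625 of 2876 genes (56.5%). The members thus lay near the share of all named genes in that test. Replicate 1 was called higher in 14 of the 24 genes (58.3%), against 23.4% of the named genes. Over all 46 members the median of replicate 1 minus the mean of the others was 0.67, against -0.031 over all probes, and the median of replicate 3 minus the others was -0.54, against -0.078. Replicate 1 was called higher than the others in 24 members (52.2%) and in 15.2% of all probes, and lower in 2 members (4.35%) and in 12.9% of all probes. Replicate 3 was called lower in 20 members (43.5%) and in 12% of all probes, and higher in 1 member (2.17%) and in 9.44% of all probes. Both arrays of replicate 1 stood above the other 4 in 26 members, against 23.4% of all probes, and both arrays of replicate 3 stood below the other 4 in 23 members, against 22% of all probes.

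These calls depended on single arrays and on the background. The F test called 0 members and 0 probes without LDM replicate 2, LDM replicate 3, PMM replicate 2 or PMM replicate 3 and 0 with normexp background correction or without the filter on detection. At an unadjusted p under 0.05 it took 32 of 46 members as reported, where 46.9% of all probes passed. Without each of those arrays in the same order it took 19 of 46, 25 of 47, 19 of 46 and 26 of 47 members, where 24.6%, 41.6%, 25.3% and 43.5% of all probes passed. With normexp it took 5 of 46 members (5.44% of all probes) and without the filter 26 of 50 (25.3% of all probes). The direction of most members held. Under each alternative that kept the probes apart, 35 to 40 of the members tested had a higher replicate 1. The median of the members ranged from 0.45 to 0.85. As reported, replicate 1 was higher in 38 of 46 members (82.6%) and in 48.5% of all probes. That share of all probes was not counted for the alternatives. The median over all probes was 0.21 with normexp and 0.15 with median centring, so most probes were higher in replicate 1 there too.

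**Figure D3:**
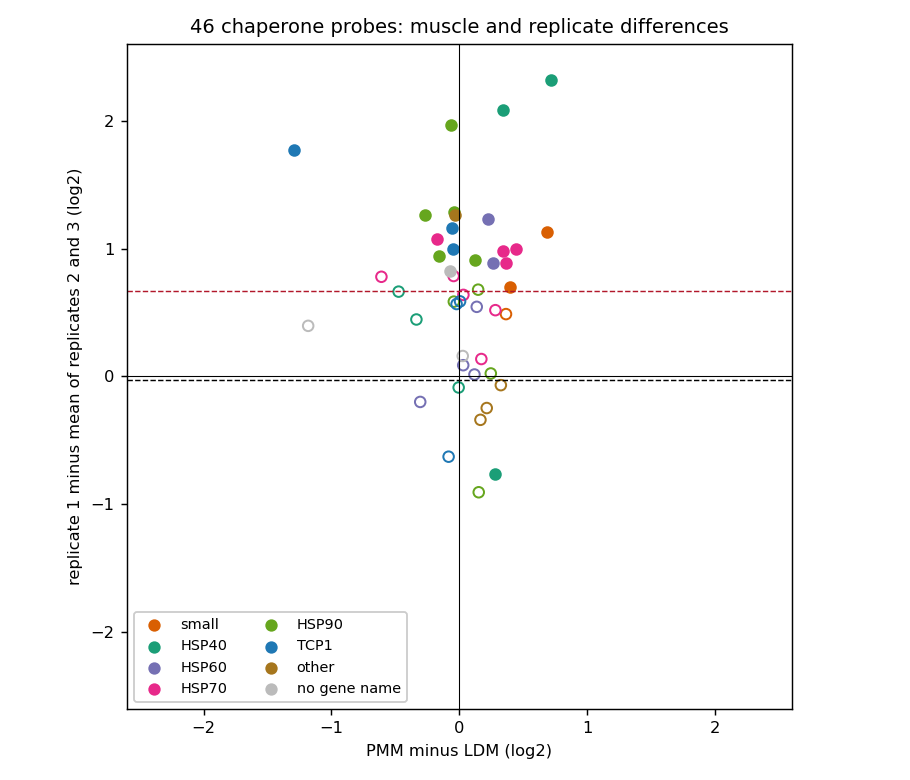
Replicate 1 minus the mean of replicates 2 and 3 (y axis, log2) against PMM minus LDM (x axis, log2) for the 46 member probes tested, coloured by class. Filled points passed the F test between replicate numbers and open points did not; the red dashed line is the median of the members on the y axis (0.67) and the black dashed line that of all probes tested (-0.031), and the points spread further along y than along x.

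DNAJA4 had the largest excess of replicate 1 among the named genes. On A_72_P177971, whose values are given above, replicate 1 exceeded replicate 3 by 6.17-fold in LDM and 7.15-fold in PMM. The contrast of replicate 1 with the others was 2.32 with a standard error of 0.22 (adjusted p = 0.0182 from limma). Its other probe (A_72_P057471, sequence above) read -0.50, -2.44 and -2.89 in LDM and -0.26, -1.64 and -2.89 in PMM. Both probes showed the same order in both muscles, with replicate 1 highest and replicate 3 lowest.

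DNAJB1, the J-domain partner of the inducible HSP70, went the other way on the only probe tested. Its other probe (A_72_P098571) lay near the background, did not pass the detection filter and had its highest replicate mean in replicate 1. Its tested probe (A_72_P203192) read 1.72, 2.14 and 2.61 in LDM and 1.85, 2.52 and 2.94 in PMM. Replicate 1 was lowest and replicate 3 highest in both muscles, with a contrast of -0.77 for replicate 1 (standard error 0.17) and an adjusted p of 0.0442 in the F test. It was the only member called by the F test that lay below the others in replicate 1.

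The cytosolic HSP90 genes were read by 8 probes. HSP90AA1 read 6.83, 5.01 and 4.40 in LDM and 6.55, 5.25 and 4.24 in PMM on A_72_P325738, and 7.37, 6.996 and 6.29 in LDM and 7.46, 7.01 and 6.64 in PMM on its brightest probe, A_72_P207327. Replicate 1 exceeded replicate 3 by 5.18-fold on the first probe and by 1.93-fold on the second, so the probes of one gene had the same order and different sizes. The first passed the F test (adjusted p = 0.0285), as did A_72_P174931 and A_72_P232852, and the brightest one missed it (0.0515). HSP90AB1 read 7.49, 6.60 and 6.62 in LDM and 7.41, 6.62 and 6.20 in PMM (A_72_P051491), 2.05-fold higher in replicate 1 than in replicate 3 (adjusted p = 0.0418). In the aligned pair of probes shown above, the HSP90AA1 probe was 2.55-fold higher in replicate 1 than in replicate 3 and the HSP90AB1 probe 1.66-fold, and only the first passed the F test. The dimmest HSP90AB1 probe (A_72_P380953) opposed the other 3, being lowest in replicate 1. It missed the F test (adjusted p = 0.0698), but its contrast of replicate 1, -0.91, passed (adjusted p = 0.0386), so that it was 1 of the 2 members called lower in replicate 1.

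AHSA1, which speeds the ATP cycle of HSP90, read 5.81, 4.62 and 4.53 in LDM and 5.81, 4.75 and 4.29 in PMM. The replicate 1 values of the 2 muscles were alike, and the contrast of replicate 1 was 1.26 with a standard error of 0.18 (adjusted p = 0.0182 from limma). HSP90B1 did not share the pattern, with a contrast of 0.023 and an adjusted p of 0.951 in the F test.

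In the HSP70 class, 4 of 9 probes passed the F test. HSP70.2 read 6.24, 5.42 and 5.22 in LDM and 6.02, 5.51 and 5.22 in PMM on the probe shown above, with an adjusted p of 0.0513, and its dimmer probe A_72_P015686 passed (0.0322). HSPA1L, an HSP70 gene next to it in the gene table, read -0.19, -0.89 and -1.63 in LDM and 0.15, -0.46 and -1.07 in PMM (adjusted p = 0.0297). HSPH1 read 3.70, 2.93 and 2.14 in LDM and 3.70, 3.31 and 2.87 in PMM (A_72_P035611, adjusted p = 0.0470), and its probe shown above passed too (0.0378). In all of these replicate 1 was highest in both muscles. HSPA5 read 5.48, 5.48 and 5.27 in LDM and 5.69, 5.61 and 5.45 in PMM, and it was not called in the F test (A_72_P205757, adjusted p = 0.556). The dimmer HSPA5 probe (A_72_P416982) missed the F test as well (0.0800), but its contrast of replicate 1 was 0.64 with a standard error of 0.17 and passed (adjusted p = 0.0446 from limma), at 1.56-fold more in replicate 1 than in replicate 3. HSPA4 was not called in the F test (0.0964).

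HSPD1 read 5.31, 4.76 and 3.79 in LDM and 5.80, 4.98 and 3.77 in PMM (A_72_P261027), 3.42-fold higher in replicate 1 than in replicate 3 (adjusted p = 0.0285). The probe shown above had 2.98-fold (0.0295), and the third probe of this gene, A_72_P359323, did not differ by the test (0.340). Its partner HSPE1 read 8.03, 7.98 and 7.998 in LDM and 8.12, 8.11 and 7.87 in PMM (A_72_P137646). The 6 values of HSPE1 thus lay within 0.25 of each other where those of HSPD1 spanned more than 2, although the partners work in 1 complex, and another HSPE1 probe (A_72_P239067) had 1.78-fold more in replicate 1 than in replicate 3 and missed the F test (0.0600).

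TCP1, the subunit that gives the ring its name, read 4.82, 3.82 and 3.58 in LDM and 4.61, 4.04 and 3.44 in PMM (A_72_P292009, adjusted p = 0.0353). Its probe shown above passed with 2.78-fold more signal in replicate 1 than in replicate 3 (0.0291). CCT5 was higher in replicate 1 on both probes and was not called (0.126 and 0.0583), and CCT2 had a contrast of -0.63 and was not called (0.255). CCT6B, whose values are given above, was called (0.0285). Its fold of replicate 1 over replicate 3 was 6.05 in LDM, where each array lay well above the background, and in PMM replicate 3 it did not, so no fold is given there. The probe passed the detection filter through LDM alone and was not tested when detection on all arrays was asked for.

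The small members differed from each other in the replicates. CRYAB was highest in replicate 1 and lowest in replicate 3 in both muscles, by 2.96-fold in LDM and 3.02-fold in PMM (adjusted p = 0.0298). HSPB1 was lowest in replicate 2 in both muscles on both probes, and only A_72_P088101 passed the F test (0.0412, against 0.108). The collagen chaperone SERPINH1 was lowest in replicate 2 in both muscles and HSBP1, which binds heat shock factor, highest in replicate 2, and neither was called (0.0909 and 0.249). Of the probes without a gene name, A_72_P238757 was called (0.0430), at 1.88-fold more in replicate 1 than in replicate 3.

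Of the genes with more than 1 tested probe, 11 of 13 had all probes on the same side of 0 in the contrast of replicate 1, and 9 of 13 had them on the same side in the difference between the muscles. HSBP1, whose overlapping probes are not separate readings, is among the 13. The share over all genes with more than 1 probe was not counted, so these counts say nothing particular to chaperones.

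Other genes of the folding system were counted from lists of pathway genes. Of 25 co-chaperones 7 were tested, 2 passed the F test (AHSA1, a member, and UNC45B, the myosin chaperone that works with HSP90), and the median contrast of replicate 1 was 0.60. UNC45B read 5.48, 4.53 and 4.27 in LDM and 5.76, 4.92 and 4.31 in PMM. Of 16 genes of folding and stress response in the endoplasmic reticulum 5 were tested, SERPINH1 among them, and only ATF4, a stress transcription factor, passed (adjusted p = 0.0494), with a median contrast of -0.042 over the 5. Of 4 heat shock factor genes 2 were tested, the member HSBP1 and HSF2, a heat shock factor linked to development, and HSF2 passed (0.0391). It read -0.39, 1.18 and 1.56 in LDM and 0.72, 1.98 and 1.59 in PMM, lowest in replicate 1 in both muscles. Of 6 prefoldin genes only PFDN2 was tested and it was not called (0.285), and of 8 genes of mitochondrial folding and proteolysis none was tested. None of these genes was called between the muscles.

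Markers of other cells moved with the replicate numbers as well. Replicate 1 was lower than the mean of the others by a median of -1.01 over the 6 adipocyte genes tested of 6, -0.92 over the 5 endothelial genes of 5, -1.50 over 3 macrophage genes of 5 and -0.99 over 3 fibroblast genes of 4. The F test called 3, 3, 3 and 2 of them. COL3A1, a collagen gene in the fibroblast list, went the other way from COL1A1 and DCN, with a contrast of 0.42 for replicate 1 and of -0.74 for replicate 3, and was not called (0.0807). The summed level of the macrophage genes was 2.84 and 3.16 in replicate 1 (LDM and PMM), 4.24 and 4.28 in replicate 2 and 4.85 and 4.69 in replicate 3, that of the endothelial genes 5.73 and 6.50, 6.53 and 6.73, and 7.34 and 7.30. The adipocyte genes summed to 6.28 and 6.37, 7.89 and 8.003, and 7.85 and 7.93, and the fibroblast genes to 6.60 and 6.15, 7.35 and 7.03, and 7.77 and 7.26. Of these 17 genes PLIN1 and KDR were not well above the background on 1 array each, and no erythrocyte gene was matched to a probe. Fast-fibre genes had a median contrast of 0.59 and slow-fibre genes one of 0.39, with 2 of 7 and 0 of 6 called. The general muscle genes had a median contrast of 0.50, with 0 of 4 called. The part of these differences in the chaperone values was not tested.

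**Figure D4:**
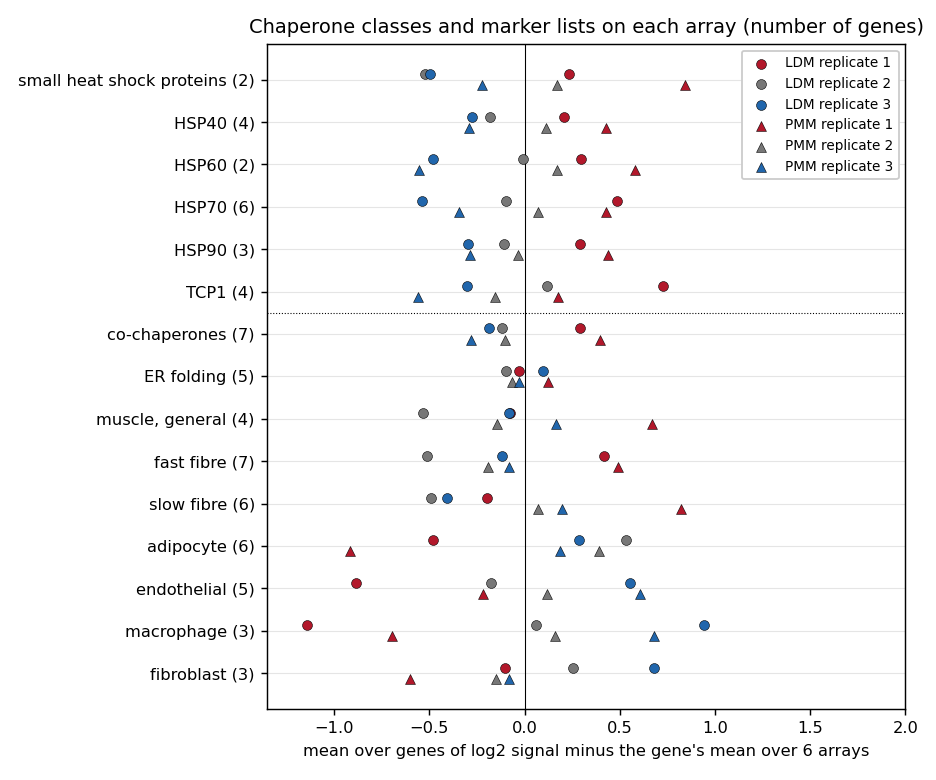
Mean distance of each class and marker list from its 6-array mean (x axis, log2), with the number of genes in brackets. Circles are LDM and triangles PMM, and red, grey and blue are replicates 1, 2 and 3. In the 6 chaperone classes above the dotted line the red points lie right of 0, as they do in the co-chaperone and fast-fibre lists. In the adipocyte, endothelial, macrophage and fibroblast lists they lie left of it. The ER folding, general muscle and slow-fibre lists have a red point on either side.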

How the data were processed

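RNA of 6 muscle samples was hybridized to one-colour Agilent arrays. The authors deposited linear spot intensities of the Cy3 channel from Agilent Feature Extraction 10.5.1.1, after its background and spatial corrections and with no normalization between arrays. The deposited series value table holds the same intensities to within 0.005. Control and outlier spots were dropped, repeated spots were averaged, and each array's 75th percentile was subtracted on the log2 scale. Probes were kept as stated above with at least 2 values per muscle. The two-sided moderated tests of limma (version 3.58.1, R version 4.3.3) were fitted on all probes, first for the muscle and then for the replicate number with the muscle as a term, with Benjamini-Hochberg adjustment over all probes tested and a threshold of 0.05. The scripts were tested on simulated data. Genes were named through accessions, gene numbers and symbols in a RefSeq table of Sscrofa11.1, used for names and gene order only, and otherwise by the files. Per class, up to 3 genes with the largest difference between muscles and between replicates were described by array, with a list of well-known chaperones and every member called. Deviations from the muscle means correlated between arrays of the same number at 0.616, 0.697 and 0.560 for replicates 1, 2 and 3. All were over 0.1, and differences are therefore also given by pairs of arrays of one number. The main test between the muscles, its standard errors and the fits without 1 array had no term for the pairs. Only the fits with the replicate block had one. Alternatives covered background, scaling, filters, probe choice, single arrays, and number or slide as a block. The members, lists and tests were chosen with earlier results of these data known.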

Additional observations from a re-analysis of the deposited data

How the results depend on the processing

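With 3 arrays per muscle, only large differences could pass, and dim probes such as CCT6B near the background have the least certain values. The muscle comparison called 0 probes. The replicate block gave 16 probes and 0 members, and over named genes 177 genes and 1 member. That member was CCT6B, which passed the detection filter through LDM alone. The slide as a block gave 757 probes and 2 members, normexp background correction 1 probe, quantile normalization 7 and median centring 9, and leaving out 1 array gave 0 to 1 probes and 0 members. The block with quantile normalization gave 0. The F test of replicate numbers (6518 probes, 21 members) called 0 probes and 0 members with normexp or without the filter on detection. With the mean or the brightest probe of a gene it called 1637 or 1625 of 2876 genes (56.9% or 56.5%). Each of these fits called 15 of 24 member genes (62.5%). Without 1 array it called 0 to 13086 probes and 0 to 27 members, and replicate 1 was called higher in 0 to 19 members. Without LDM replicate 1 or PMM replicate 1 it called 27 and 20 members. The cause was not tested. Replicate 1 minus the others over all probes had a median of 0.21 with normexp, 0.15 with median centring and -0.16 with the percentile over probes detected on all arrays, and the median of the members exceeded it by 0.23, 0.70 and 0.70, against 0.70 as reported.

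The class medians of PMM minus LDM (brightest probes) were 0.53 for the small class, 0.14 for HSP40, 0.13 for HSP60, 0.23 for HSP70, 0.15 for HSP90 and -0.065 for TCP1. Leaving out 1 array gave 0.24 to 0.77, -0.024 to 0.16, -0.13 to 0.44, 0.076 to 0.35, -0.15 to 0.27 and -0.29 to -0.0082 in the same order. With normexp HSP40 had 0.024, HSP70 0.11 and HSP90 -0.0080. HSP90 had 0.096 with quantile normalization, with or without the block, 0.083 with median centring and 0.042 with the mean of probes.

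Some differences not called changed sign. The fits without 1 array had no term for the replicate number, so differences between replicate numbers enter their values of PMM minus LDM. For PMM minus LDM, normexp gave HSPE1 -0.14, HSP90AA1 -0.0080, CCT2 0.081 and HSBP1 -0.020; quantile normalization, with or without the block, gave DNAJC8 0.0035 and HSPE1 -0.10; median centring gave HSPE1 -0.034; the percentile over detected probes gave DNAJC8 0.020 and CCT5 0.0036; the slide as a block gave HSP70.2 0.043, CCT2 0.22 and TCP1 0.038. For replicate 1 minus the others, normexp gave HSPE1 -0.14, HSPA5 -0.13, HSP90B1 -0.25 and SERPINH1 0.067; quantile normalization gave HSPE1 -0.19, HSPA5 -0.22, HSP90B1 -0.30 and SERPINH1 0.089; median centring gave DNAJC8 0.090 and SERPINH1 0.11; the percentile over detected probes gave HSPE1 -0.043 and HSP90B1 -0.11. Without 1 array, PMM minus LDM ranged from -0.029 to 1.52 for DNAJA4, -0.077 to 0.082 for DNAJC8, -0.24 to 0.77 for HSPD1, -0.012 to 0.11 for HSPE1, -0.26 to 0.26 for HSP70.2, -0.022 to 0.75 for HSPH1, -0.15 to 0.39 for HSP90AA1, -0.49 to 0.13 for HSP90AB1, -0.40 to 0.28 for CCT2, -0.25 to 0.13 for CCT5, -0.34 to 0.33 for TCP1 and -0.46 to 0.38 for AHSA1. Replicate 1 minus the others ranged from -0.22 to 0.044 for DNAJC8, -0.13 to 0.17 for HSP90B1, -0.23 to 0.095 for SERPINH1 and -0.026 to 0.82 for A_72_P128396. Between the muscles the direction held in all 20 alternatives run for 10 genes, 8 with a higher mean in PMM (CRYAB, HSPB1, DNAJB1, HSPA1L, HSPA4, HSPA5, HSP90B1 and SERPINH1) and 2 with a lower one (DNAJB12 and HSPA6). In the contrast of replicate 1 it held in all 17 for 18 genes, 15 of them higher in replicate 1 and 3 lower (DNAJB1, CCT2 and HSBP1). Part of these alternatives could not change a direction. Another detection filter or the replicate block leaves the estimate of a probe as it was, and the series value table holds the same intensities. Quantile normalization gave the same estimate between the muscles with and without the block.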
